A study of Mus musculus with 6 samples.

Results

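The 10 genes described here are markers of the mural cells, the smooth muscle cells and pericytes that wrap blood vessels. They were chosen by name from 54232 genes in the deposited count table. The 5 contractile smooth muscle genes are Myh11, Acta2, Tagln, Cnn1 and Smtn, and the 5 pericyte genes are Rgs5, Pdgfrb, Cspg4, Abcc9 and Mcam. All 10 passed the default expression filter, with which 14335 genes were tested. The libraries came from tibialis anterior, a fast muscle of the front of the lower leg, of C57BL6 mice aged 1 month. One group carried a deletion of exon 51 of the dystrophin gene Dmd (genotype Delta 51, here D51, libraries D51 4, D51 5 and D51 6), and the other was WT (WT 1, WT 2 and WT 3). The comparison asks how gene expression in the muscle differs when exon 51 is missing. The sources used here do not state whether the deletion comes from 1 founder or how the mice were related.

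Smooth muscle cells of arteries and arterioles set vessel diameter through a smooth muscle actin and myosin apparatus, and pericytes cover capillaries and share many of their genes. In smooth muscle, serum response factor and its cofactor myocardin drive contractile genes through a promoter element called the CArG box. Signalling through the PDGF receptor beta recruits mural cells to vessels. Some of these genes are also used outside the vessel wall. Acta2 is known from myofibroblasts, Pdgfrb from fibroblasts, Mcam from endothelium, and Abcc9 from muscle fibres. In whole muscle, fewer cells of a type and less RNA per cell cannot be told apart.

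The libraries held 18571038 to 20105817 assigned reads in D51 and 15681945 to 21020353 in WT. Dmd, read over the whole gene, stood at 47.7, 46.4 and 51.1 CPM (counts scaled to sequencing depth) in D51 4, 5 and 6, against 235, 249 and 266 CPM in WT 1, 2 and 3, so each library was on the side its label gives. The fast fibre myosin gene Myh4 was at 20278, 20087 and 38588 CPM in D51 4, 5 and 6 and at 39353 to 43987 CPM in WT, and Acta1 and Ckm were also abundant in every library, as the muscle label says. CPM here were scaled between libraries by TMM, the trimmed mean of M, which sets the bulk of genes level. The TMM factors were 1.04 to 1.19 in D51 and 0.869 to 0.898 in WT. With library size alone as the scale, the median over all genes therefore lay 0.35 log2 units higher, and fold changes below are relative to the bulk of genes unless stated. Log2 fold changes are D51 over WT with a standard error (SE), from the edgeR quasi-likelihood test with Benjamini-Hochberg adjustment over all genes tested, with calls at an adjusted p below 0.05.

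Of the 10 genes, 3 fell in D51 muscle and 0 rose. They were Myh11 among the 5 contractile genes and Rgs5 and Abcc9 among the 5 pericyte genes. Over all genes tested, 11.9% were called lower and 16.1% higher. In the same 3 genes every D51 library lay below every WT library, which was the case in 21.7% of all genes tested. The median log2 fold change was -0.33 over the contractile genes and -0.07 over the pericyte genes, against -0.01 over all genes. Under library size alone the medians were 0.03 and 0.28 against 0.34 over all genes. There, Myh11 and Rgs5 were again called lower, in a setting that called 2.33% of genes lower. Acta2 was called higher, in a setting that called 37.6% of genes higher.

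**Figure D1:**
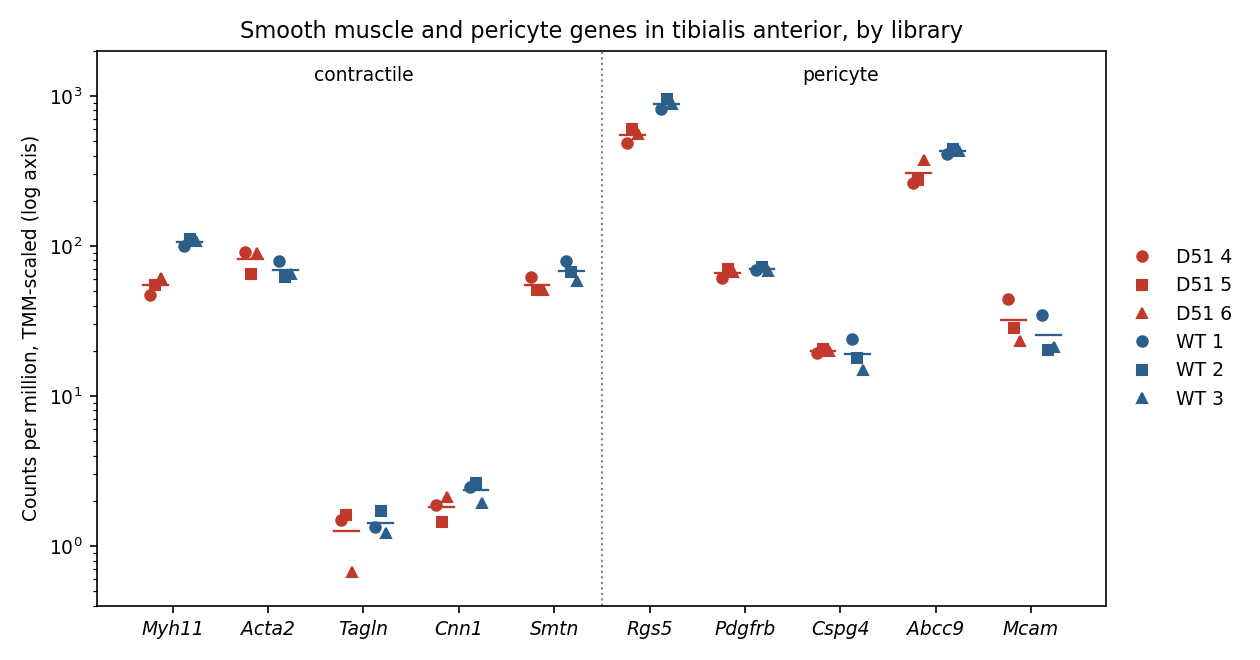
TMM-scaled CPM (log axis) of the 10 genes in each library, with D51 left of WT for each gene. Symbols are libraries and horizontal lines are group means. Myh11, Rgs5 and Abcc9 are the genes in which no D51 library reaches the lowest WT library.

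The contractile genes begin with the motor. Myh11 (ENSMUSG00000018830, chromosome 16, 14194535 to 14291372 in GRCm38) encodes the smooth muscle myosin heavy chain, the most lineage-restricted marker of the 5. It was at 47.1, 55.3 and 61.4 CPM in D51 4, 5 and 6, against 100.3, 112 and 107 CPM in WT 1, 2 and 3. The D51 libraries thus all lay far below the WT libraries, and D51 held 51.2% of the WT mean. Myh11 had a log2 fold change of -0.97 (SE 0.113, 95% interval -1.23 to -0.71), with an edgeR adjusted p of 0.00130. The value was -0.62 under library size alone (adjusted p = 0.00264) and -1.06 to -0.87 when each library was left out in turn, and the call held in each.

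Acta2 (ENSMUSG00000035783, chromosome 19, 34241090 to 34255590) encodes smooth muscle alpha-actin, the filament on which this myosin pulls. It was at 90.6, 64.6 and 89.1 CPM in D51 4, 5 and 6, against 79.3, 62.4 and 65.2 CPM in WT 1, 2 and 3. D51 4 and D51 6 lay above every WT library, and D51 5 lay within the WT range. At a log2 fold change of 0.24 (SE 0.152, 95% interval -0.11 to 0.59, adjusted p = 0.275 in edgeR) Acta2 was not called, and the interval excludes a fall like that of Myh11. Under library size alone it was called higher (0.58, edgeR adjusted p = 0.0154).

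The levels of the actin and myosin genes can also be set against each other within each library, which needs no scaling between libraries. The log2 ratio of Acta2 to Myh11 counts was 0.95, 0.23 and 0.54 in D51 4, 5 and 6, against -0.34, -0.84 and -0.72 in WT 1, 2 and 3. Every D51 library held more Acta2 than Myh11 reads, and every WT library held fewer. Read counts also depend on gene length (1781 bases for Acta2 and 7599 for Myh11). Per kilobase, mean Acta2 stood above mean Myh11 in both genotypes, at 45.7 against 7.18 CPM in D51 and 38.7 against 14.03 CPM in WT. The mean difference was 1.20 log2 units, a 2.30-fold higher ratio in D51, with a spread of 0.36 in D51 and 0.26 in WT (SD, n = 3 each). It is given without a test, since the pair was picked with its values known. Because Myh11 fell in D51, a gene at an unchanged level would also have a higher ratio to Myh11 there. The share of all genes with such a ratio was not computed.

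Markers of other cell types that can use Acta2 moved in the same samples. For comparison, 16.1% of all genes tested were called higher and 11.9% lower. Of 7 myofibroblast markers, 4 rose and 0 fell, with a summed level of 690 to 971 CPM in D51 and 184 to 339 CPM in WT, and none was at 0. Fn1 (387 ± 18.2 CPM in D51 and 133 ± 32.7 CPM in WT, SD, n = 3 each) and Postn (256 ± 90.8 and 27.6 ± 17.7 CPM in the same order) were the most abundant. Of 8 markers of fibro-adipogenic progenitors and fibroblasts, 6 rose and 0 fell, with a summed level of 994 to 1170 CPM in D51 and 610 to 824 CPM in WT and none at 0. The 2 most abundant were Dcn, at 536 ± 109 CPM in D51 and 470 ± 74.5 CPM in WT, and Lum, at 138 ± 15.3 and 56.1 ± 12.99 CPM. All 7 regenerating muscle markers rose, with a summed level of 327 to 408 CPM in D51 and 55.0 to 59.3 CPM in WT and none at 0, led in abundance by Myh3 and Chrna1. The part of these cells in the level of Acta2 was not tested.

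Smtn (ENSMUSG00000020439, chromosome 11, 3517523 to 3540612) encodes smoothelin, an actin-binding protein of contractile smooth muscle. It was at 62.2, 50.5 and 50.8 CPM in D51 4, 5 and 6, against 79.7, 67.3 and 57.9 CPM in WT 1, 2 and 3. D51 4 lay within the WT range, and D51 5 and D51 6 lay below it. Its log2 fold change of -0.33 (SE 0.138, adjusted p = 0.114 in edgeR) was not called, and it turned to 0.03 under library size alone. In the authors' deposited table Smtn has a log2 fold change of -0.36 and an adjusted p of 0.0312, the 1 member called there and not here. That table holds a likelihood-ratio score and has 18.8% of its 13958 genes lower at the same threshold. An edgeR likelihood-ratio test run here did not call Smtn (-0.33, adjusted p = 0.114).

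The last contractile genes were scarce. Cnn1 (ENSMUSG00000001349, chromosome 9, 22099216 to 22109630) encodes calponin 1, and Tagln (ENSMUSG00000032085, chromosome 9, 45929619 to 45936058) encodes transgelin, both actin-binding proteins that are usually abundant in smooth muscle. Cnn1 had 44, 33 and 41 reads in D51 4, 5 and 6, against 45, 48 and 27 reads in WT 1, 2 and 3, or 1.82 ± 0.347 CPM in D51 and 2.35 ± 0.368 CPM in WT (SD, n = 3 each). Tagln had 35, 37 and 13 reads in D51 4, 5 and 6, against 24, 31 and 17 reads in WT 1, 2 and 3, or 1.26 ± 0.513 and 1.41 ± 0.252 CPM.

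The groups overlapped in both, and at this depth a modest change could not be detected. The log2 fold changes were -0.38 for Cnn1 (95% interval -0.93 to 0.17, adjusted p = 0.266 in edgeR) and -0.15 for Tagln (-0.96 to 0.65, adjusted p = 0.775). Tagln turned to 0.21 under library size alone and to 0.13 without D51 6. Tagln overlaps Pcsk7 at one end and the antisense gene Gm48529 in its body, both on the opposite strand. Pcsk7 had 288 to 396 reads in D51 and 188 to 278 in WT, and Gm48529 had 8 to 13 and 5 to 8. No source used here states the strand setting of the counting, so the count of Tagln is uncertain. Smtn, Abcc9 and Mcam also overlap genes on the opposite strand, of which none had more than 33 reads in a library.

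The CArG box offers a look at sequence for the contractile genes, since Acta2 is a classic target. RefSeq promoter windows on GRCm38.p6 were at hand for 7 of the 10 genes, and the 250 bases before the start were searched. The canonical CArG box, which reads the same on both strands, is in 1.47% of 32851 windows and in 0 of these 7. A looser form with at most 1 C or G among its inner letters, chosen after the canonical form gave no match, is in 8.59% of windows and at least 2 times in 0.67%. Myh11, Tagln and Pdgfrb had no window. Of the 7 genes searched it is in Acta2 alone, which holds 2 copies. They are shown with their flanks, on the minus strand, with the element in capitals.
Acta2 distal element (chr19:34255438-34255467): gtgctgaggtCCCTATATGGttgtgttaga
Acta2 proximal element (chr19:34255388-34255417): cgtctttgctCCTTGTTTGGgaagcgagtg
The distal element spans bases -84 to -75 and the proximal one -34 to -25, counted back from the RefSeq start. GENCODE M21 starts Acta2 further upstream, so there both fall in exon 1 of a transcript. The letters are a match to a pattern, and no binding was measured.

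The pericyte genes begin with Rgs5 (ENSMUSG00000026678, chromosome 1, 169655501 to 169695813), a regulator of G-protein signalling that is among the strongest pericyte markers. It was at 488, 605 and 554 CPM in D51 4, 5 and 6, against 816, 950 and 886 CPM in WT 1, 2 and 3. Every D51 library lay well below every WT library, and D51 held 62.1% of the WT mean. Rgs5 had a log2 fold change of -0.69 (SE 0.120, 95% interval -0.96 to -0.41), with an edgeR adjusted p of 0.00572. This was -0.75 to -0.61 with each library left out in turn, called each time, and -0.33 under library size alone (adjusted p = 0.0475).

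Abcc9 (ENSMUSG00000030249, chromosome 6, 142587862 to 142702315) encodes SUR2, the regulatory subunit of an ATP-sensitive potassium channel. It was at 265, 273 and 374 CPM in D51 4, 5 and 6, against 412, 439 and 431 CPM in WT 1, 2 and 3. No D51 library reached the lowest WT library, and D51 6, which also had the highest Myh4 of the D51 libraries, was nearest to it. The part of muscle fibres in the level of Abcc9 was not tested. The log2 fold change was -0.49 (SE 0.143, edgeR adjusted p = 0.0360). The call ended without WT 1 (-0.53), WT 2 (-0.48), WT 3 (-0.49), D51 4 (-0.40) or D51 5 (-0.41) and under library size alone (-0.15), while without D51 6 the value was -0.67.

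Pdgfrb (ENSMUSG00000024620, chromosome 18, 61045150 to 61085061) encodes the receptor through which PDGF-B from endothelium recruits pericytes. It was at 61.2, 70.6 and 66.8 CPM in D51 4, 5 and 6, against 68.6, 72.3 and 68.0 CPM in WT 1, 2 and 3. The groups overlapped, and the libraries were close to each other throughout. With a log2 fold change of -0.07 (SE 0.0867, 95% interval -0.27 to 0.13, adjusted p = 0.563 in edgeR), Pdgfrb was not called. The interval excludes a fall as large as that of Rgs5, and the value turned to 0.28 under library size alone, again with no call (adjusted p = 0.0505).

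Cspg4 (ENSMUSG00000032911, chromosome 9, 56865033 to 56899870) encodes the proteoglycan NG2, a surface marker of pericytes. It was at 19.4, 20.5 and 20.04 CPM in D51 4, 5 and 6, against 24.1, 17.9 and 14.8 CPM in WT 1, 2 and 3. The D51 libraries all lay inside the wider WT range. The log2 fold change was 0.07 (SE 0.166, adjusted p = 0.784 in edgeR), and it was -0.08 without WT 3.

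Mcam (ENSMUSG00000032135, chromosome 9, 44134469 to 44142727) encodes CD146, an adhesion molecule of vessel cells. It was at 44.1, 28.3 and 23.3 CPM in D51 4, 5 and 6, against 34.7, 20.3 and 21.1 CPM in WT 1, 2 and 3. D51 4 and WT 1 stood above the other libraries of their genotypes, and the groups overlapped. The log2 fold change was 0.33 (SE 0.277, adjusted p = 0.408 in edgeR). It ran from 0.02 without D51 4 to 0.62 without WT 1, with no call in either.

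**Figure D2:**
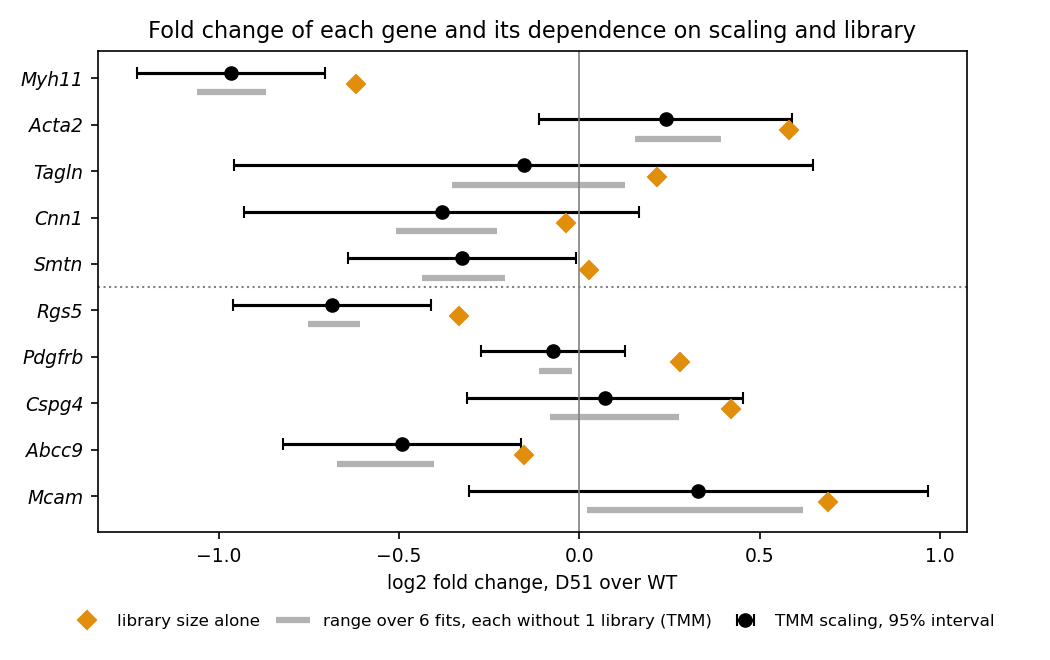
Log2 fold change (D51 over WT) of each gene, with contractile genes above the dotted line and pericyte genes below it. Black points carry 95% intervals under TMM scaling, orange diamonds use library size alone, and grey bars span 6 fits that each leave out 1 library. Myh11, Rgs5 and Abcc9 stay below 0 in all of these, whereas Smtn, Tagln and Pdgfrb change side with the scaling.

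The pericyte genes also separated from each other within libraries. The log2 ratio of Rgs5 to Pdgfrb counts was 3.00, 3.10 and 3.05 in D51 4, 5 and 6, against 3.57, 3.72 and 3.70 in WT 1, 2 and 3. Every D51 library was lower, by 0.61 on average, against an SD of 0.0516 in D51 and 0.0788 in WT (n = 3 each). Myh11 to Pdgfrb differed more, at -0.38, -0.35 and -0.12 in D51 4, 5 and 6, against 0.55, 0.63 and 0.66 in WT 1, 2 and 3. Myh11 to Rgs5 differed least, at -3.38, -3.45 and -3.17 in D51 4, 5 and 6, against -3.03, -3.08 and -3.04 in WT 1, 2 and 3. All 3 ratios were lower in every D51 library, and like the others they are described without a test. They restate the fold changes of these genes free of scaling. The share of all genes that separate in such a ratio was not computed.

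The balance of contractile against pericyte genes depended on how it was summed. The summed level per kilobase of the contractile genes over that of the pericyte genes was 0.50 log2 units higher in D51 (mean -1.44 ± 0.282 in D51 and -1.94 ± 0.198 in WT, SD, n = 3 each), with overlapping groups. With the mean log2 level in place of the sum, the difference was -0.17. The sums rest mostly on Acta2 and Rgs5.

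**Figure D3:**
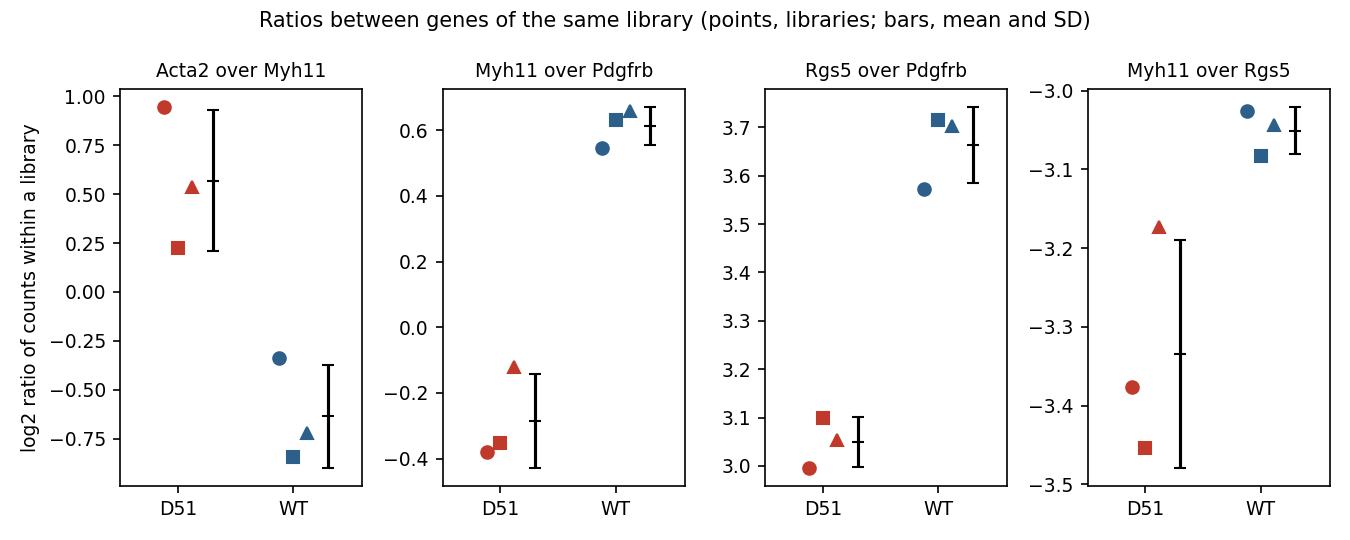
Log2 ratios of read counts between pairs of genes within each library, D51 left of WT. Circles, squares and triangles are D51 4, 5 and 6 or WT 1, 2 and 3, and black bars are mean and SD. In each of the 4 ratios the genotypes do not overlap, with Acta2 over Myh11 higher in D51 and the other ratios lower. The pairs were picked with their values known. Abcc9 over Kcnj8 and the contractile to pericyte ratio, which overlapped between genotypes, are not shown.

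Endothelial markers give another yardstick for the vessels, beside the 11.9% of all genes called lower and 16.1% called higher. Of 11 endothelial markers, 7 fell and 0 rose (median log2 fold change -0.53), led in abundance by Flt1 (110 ± 11.7 CPM in D51 and 205 ± 57.8 CPM in WT, SD, n = 3 each) and Cdh5 (133 ± 16.2 and 179 ± 10.9 CPM). Their summed level was 504 to 579 CPM in D51 and 757 to 860 CPM in WT, with none at 0. Under library size alone, which called 2.33% of all genes lower, 1 fell and the median was -0.17. The part of a change in endothelial content in the mural values was not tested.

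Against that endothelial sum within each library, Myh11 was still lower in every D51 library (log2 ratio -3.59, -3.39 and -3.04 in D51 4, 5 and 6, and -2.95, -2.94 and -2.82 in WT 1, 2 and 3). Rgs5 overlapped, with a mean difference of -0.15, as did Abcc9 with 0.03. Acta2, Pdgfrb, Cspg4 and Mcam were higher relative to endothelium in every D51 library, by 0.77, 0.46, 0.64 and 0.86. Since the endothelial sum itself was lower in D51, the same ratio was higher in every D51 library for 63.2% of all genes tested and lower for 1.43%, with a median difference of 0.52. The higher ratios of those 4 genes are therefore a direction that most genes share, and Pdgfrb lay below that median. With Pecam1 alone as the endothelial yardstick, Myh11 (-0.72) and Rgs5 (-0.43) were lower in every D51 library and those 4 genes overlapped. There 4.06% of all genes were lower in every D51 library and 34.3% higher, with a median difference of 0.24.

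In level per kilobase of gene length, Rgs5 led in both genotypes, at 121 ± 12.9 CPM per kilobase in D51 and 194 ± 14.7 in WT (SD, n = 3 each). In D51 it was followed by Acta2 (45.7 ± 8.19) and Abcc9 (36.3 ± 7.27), whose libraries overlapped. Smtn (12.5 ± 1.52), Pdgfrb (12.1 ± 0.862), Mcam (9.52 ± 3.25) and Myh11 (7.18 ± 0.949) came next, each overlapping its neighbour in that order. In WT Abcc9 (51.1 ± 1.67) stood above Acta2 (38.7 ± 5.08) without overlap, and Smtn (15.6 ± 2.49), Myh11 (14.03 ± 0.782) and Pdgfrb (12.7 ± 0.425) followed, each overlapping the next. Cspg4 was at 1.67 ± 0.0462 in D51 and 1.59 ± 0.397 in WT. Cnn1 (0.665 ± 0.127 in D51 and 0.859 ± 0.135 in WT) and Tagln (0.636 ± 0.258 and 0.712 ± 0.127) were lowest and overlapped. Among the contractile genes Acta2, Smtn and Myh11 therefore carried most of the signal, and Cnn1 and Tagln were more than an order of magnitude lower per kilobase than any of these.

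Beyond the 10 genes, further genes of the contractile machinery and its control fell. Of 14 smooth muscle contractile and signalling genes tested, 6 fell and 0 rose (median log2 fold change -0.50), against 11.9% lower and 16.1% higher over all genes. With each library left out 3 to 6 of the list fell, the fewest without WT 2. Mylk, the myosin light chain kinase that triggers contraction, was at 34.6, 34.2 and 38.0 CPM in D51 4, 5 and 6, against 52.1, 52.7 and 51.6 CPM in WT 1, 2 and 3, with no overlap. Its log2 fold change was -0.55 (SE 0.0818, edgeR adjusted p = 0.00305). Kcnma1, the pore subunit of the large-conductance calcium-activated potassium channel, fell by 0.91 on the log2 scale (SE 0.172), and Pcp4l1 fell by 1.27 (SE 0.214). The part of cells other than smooth muscle in the levels of Kcnma1 and Pcp4l1 was not tested. Ppp1r12b, a myosin phosphatase subunit that muscle fibres also express, fell by 0.46 (SE 0.102) but was not called without WT 2 or D51 4. Under library size alone the list had 2 lower and 1 higher, Pcp4l1 and Kcnma1 being the lower ones. That setting called 2.33% of all genes lower and 37.6% higher.

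The other pericyte and mural genes gave a similar count, with 6 of 15 lower and 0 higher (median -0.52), against 11.9% and 16.1% of all genes. With each library left out 3 to 6 were lower, the fewest without WT 2. Gucy1a1, a subunit of the soluble guanylate cyclase that senses nitric oxide, was at 14.3, 17.6 and 16.7 CPM in D51 4, 5 and 6, against 26.3, 29.9 and 29.9 CPM in WT 1, 2 and 3. Its log2 fold change was -0.83 (SE 0.112, edgeR adjusted p = 0.00227), and its partner subunit Gucy1b1 fell by 0.71 (SE 0.140).

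Kcnj8, which encodes the pore subunit that pairs with the product of Abcc9, was at 12.1, 14.7 and 12.1 CPM in D51 4, 5 and 6, against 20.9, 23.5 and 19.2 CPM in WT 1, 2 and 3. No library overlapped, and the log2 fold change was -0.71 (SE 0.124, edgeR adjusted p = 0.00574). The log2 ratio of Abcc9 to Kcnj8 counts within libraries averaged 4.54 in D51 and 4.34 in WT, so Abcc9 was far more abundant. That ratio overlapped between genotypes, with a mean difference of 0.20 log2 units. The part of cells other than pericytes in it was not tested. Notch3, the receptor that keeps arterial smooth muscle mature, fell by 0.54 (SE 0.117) and was not called without WT 2. Under library size alone, which called 2.33% of all genes lower and 37.6% higher, the list had 1 lower, Gucy1a1, and 2 higher.

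Among 8 tested of 10 transcription regulators, 1 fell and 1 rose, close to the 11.9% lower and 16.1% higher over all genes tested. Myocd, the myocardin gene, was at 0.599, 0.569 and 0.883 CPM in D51 4, 5 and 6, against 1.22, 1.32 and 1.43 CPM in WT 1, 2 and 3. The groups did not overlap at this low level, and the log2 fold change was -0.95 (SE 0.276, edgeR adjusted p = 0.0358). The call ended without any 1 of WT 1, WT 2, WT 3, D51 4 or D51 5 and under library size alone (-0.61). Without D51 6, 2 regulators were called lower. Under library size alone 0 of the 8 were lower and 2 were higher, Tbx18 and Klf4 (0.74, edgeR adjusted p = 0.0361). That setting called 2.33% of all genes lower and 37.6% higher. Klf4 was not called under TMM scaling (0.39) and was named after its values were seen. Tbx18, a factor of mural progenitors, rose to 5.16 ± 0.0399 CPM in D51, against 2.30 ± 0.553 CPM in WT (SD, n = 3 each, log2 fold change 1.18, SE 0.203). The part of other cell types in the level of Tbx18 was not tested. Srf (-0.47) and its cofactor gene Mkl2 (-0.28) were not called, with edgeR adjusted p of 0.0503 and 0.0540.

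Of 10 ligands and receptors that act in mural cell recruitment, 3 rose and 1 fell, beside 16.1% higher and 11.9% lower over all genes. Tgfb1 (1.58, SE 0.204), which drives smooth muscle differentiation, and Cdh2 (1.51, SE 0.199), the N-cadherin of contacts between pericytes and endothelium, rose most. Macrophage and regenerating muscle markers rose in the same libraries (median log2 fold changes 3.51 and 3.68). The part of such other cells in the levels of Tgfb1 and Cdh2 was not tested. Tgfbr2 rose by 0.36 (SE 0.104) but was not called without WT 1, WT 2, D51 5 or D51 6. Tek, the angiopoietin receptor of endothelium, fell by 0.53 (SE 0.0918), with no call under library size alone (-0.17). Pdgfb, the ligand of the receptor encoded by Pdgfrb, was at 26.3, 19.5 and 17.3 CPM in D51 4, 5 and 6, against 31.5, 20.9 and 20.7 CPM in WT 1, 2 and 3, and was not called (-0.21). Pdgfb was named after its values were seen.

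**Figure D4:**
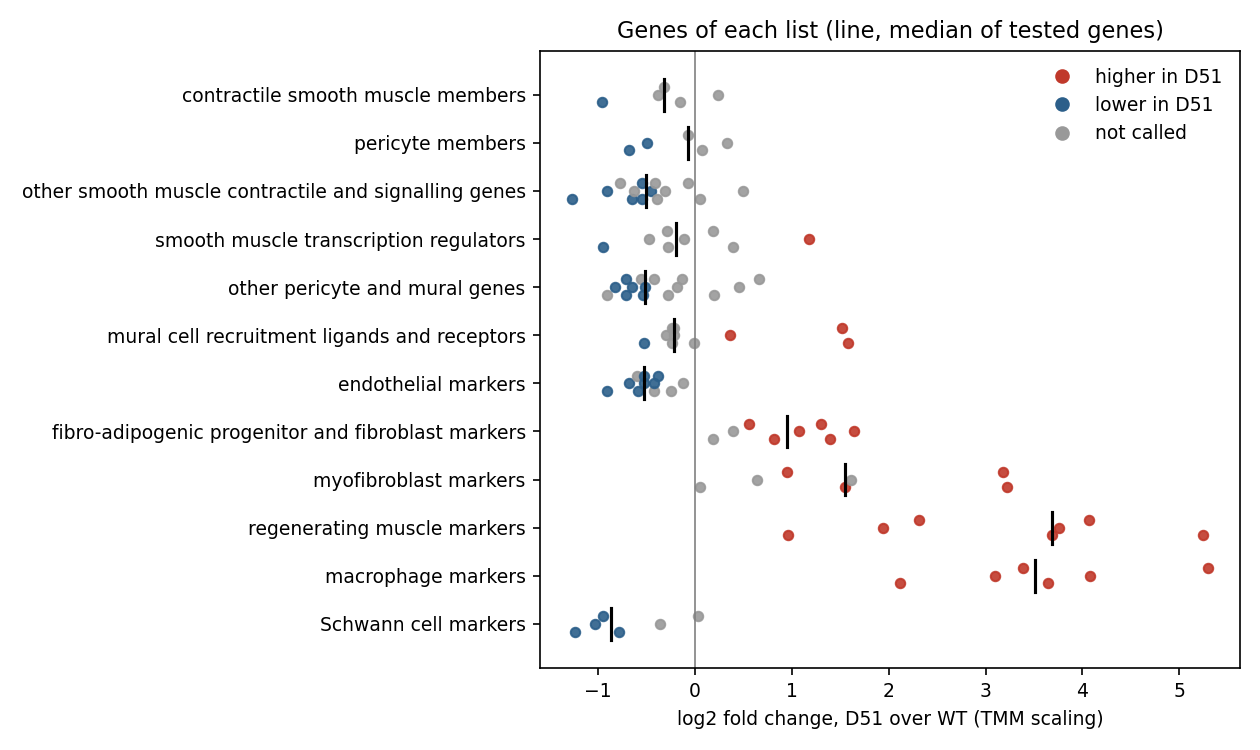
Log2 fold change (D51 over WT, TMM scaling) of the tested genes of each list, red where called higher in D51, blue where called lower and grey where not called, with a black line at the list median. The smooth muscle, mural, endothelial and Schwann cell lists lie mostly below 0, and the fibroblast, myofibroblast, regenerating muscle and macrophage lists lie above it.

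Markers of further cell types moved in the same libraries, in which 16.1% of all genes were called higher and 11.9% lower. All 6 macrophage markers rose, with a summed level of 408 to 999 CPM in D51 and 39.3 to 85.1 CPM in WT, and Lyz2 and Csf1r were the most abundant. Of 6 Schwann cell markers 4 fell and 0 rose, with sums of 73.3 to 78.7 and 102 to 116 CPM, led by Pmp22, which was not called (0.03). Under library size alone, which called 2.33% of all genes lower and 37.6% higher, 3 Schwann cell markers were lower and 1 was higher. No marker of either list was at 0. Cardiac markers were near the floor, with a sum of 1.88 to 2.54 CPM in D51 and 4.60 to 5.59 CPM in WT, and Myl7 was at 0 in all libraries. Of the 2 that were tested, Myh6 fell and Ryr2 was not called.

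Profiles over the 6 libraries were compared without the 10 genes themselves, pseudogenes and provisional names (Gm with digits, or ending in Rik). Among the remaining genes of at least 5 CPM, those whose log2 CPM most resembled Myh11 were Polr2m, Acacb, AC162693.1, Ahcyl2 and Nadk2 (Pearson r of 0.997 to 0.998). Those most like Rgs5 were Crim1, Myh14, Sox13, Ipo13 and Kcnj2 (r of 0.996 to 0.998). These r values are descriptions over 6 libraries that share 2 genotypes and the same scaling. Of 9415 genes compared, 510 had an r above 0.95 with Myh11 and 212 with Rgs5.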

How the data were processed

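Whole tibialis anterior RNA was made into stranded mRNA libraries, per the labels' protocols. Genome build GRCm38 (mm10), featureCounts 1.6.0, FastQC 0.11.4 and edgeR 3.30.1 were used per the submitters' processing notes. No source used here gives the aligner, strand setting or annotation release. The authors deposited raw counts per gene, gene lengths, RPKM values for 13958 genes, and a comparison table. Per the file headers that table holds log2 fold changes and log2 CPM, a likelihood-ratio score, p-values, adjusted p-values and −log10 p-values.

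Counts were tested with edgeR 4.0.16 in R 4.3.3 (quasi-likelihood F-test, two-sided, TMM, filter by group, Benjamini-Hochberg over 14335 genes). The SE is the fold change divided by the root of F. The test was checked on simulated counts. Coordinates are from GENCODE M21, and Gucy1a1 and Gucy1b1 were found by older symbols.

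The genes and lists were chosen with earlier results of these data known. Named from each further list are the 4 genes of smallest adjusted p, or the 2 most abundant for cell type markers, of which 1 is not reported here. Alternatives used limma 3.58.1 and DESeq2 1.42.0. Whether replicates come from separate litters is not given. The p-values weigh the group difference only against the variation between these samples, with information shared between genes. No library repeated another (chi-square per degree of freedom 8.08 to 42.9 within groups).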

Additional observations from a re-analysis of the deposited data

How the results depend on the processing

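Myh11 and Rgs5 were called lower under all 19 alternatives run for each, with log2 fold changes of -1.06 to -0.57 and -0.75 to -0.33. Dmd was called lower under all alternatives too (-2.42 to -1.65). The number of pericyte genes called lower went to 1, Rgs5, under library size alone, the 3 fits of the deposited RPKM, and without the 2 libraries numbered 1 in the descriptions (WT 1 and D51 4, an alternative chosen after seeing the data). With each library left out it was 1 to 2. The number called higher was 1, Acta2, under library size alone and the 3 RPKM fits. Tagln (0.11 and 0.0719), Smtn (0.0291 and 0.0272) and Pdgfrb (0.27 and 0.25) turned positive in the RPKM fits with pseudocounts of 0.1 and 1, as under library size alone (0.21, 0.0279 and 0.28). The median over all genes was itself positive there, at 0.32 and 0.21 in these RPKM fits and 0.34 under library size alone. With each library left out, Tagln ran from -0.353 to 0.13, positive without D51 6, and Cspg4 from -0.0819, without WT 3, to 0.28. Over all genes, 2309 were higher and 1701 lower, against 1346 and 663 without WT 2, 1629 and 759 without D51 5, 1688 and 986 without D51 4, 1440 and 686 without WT 1 and D51 4, 5394 and 334 under library size alone, and 4085 to 5222 and 262 to 309 in the RPKM fits. The contractile to pericyte ratio was 0.37 to 0.64 with each library left out and -0.17 by mean log2 level, a setting in which each gene weighs the same. The stricter filter left no value for Tagln and Cnn1. The same-numbered libraries deviated together with r = 0.35, -0.01 and 0.06, and 2 of 6 libraries matched their own number best. With the replicate block, 2 contractile genes (Myh11 and Smtn, -0.32) were called lower and 1 gene (Mcam, 0.33) higher. Counts of 13 to 48 reads per library limit Tagln and Cnn1.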
